A study of Mus musculus with 10 samples.

Results

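The BCL2 family genes Bcl2, Bcl2l1, Mcl1, Bax, Bak1, Bcl2l11, Bbc3, Pmaip1, Bid and Bik were followed from mouse embryonic fibroblasts through induced reprogramming to embryonic stem cells. They are 10 of the 45706 genes in the data, were chosen by name as regulators of mitochondrial apoptosis, and all 10 were matched by symbol to a single gene each. All 10 passed the filter on low counts, with between 6 and 17520 estimated reads per library. Bcl2, Bcl2l11, Bbc3 and Bik were higher in every induced library than in every fibroblast and stem cell library, as were 13.8% of all tested genes. Pmaip1 was highest in the stem cells. Bcl2 was lowest in the stem cells, where Mcl1 made up 86% of the transcripts of the 3 anti-apoptotic genes.

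The family decides whether the outer membrane of the mitochondrion is opened, the step that releases cytochrome c and starts the caspase cascade. BAX and BAK1 form the pores, BCL2, BCL2L1 (BCL-XL) and MCL1 bind and restrain them, and the BH3-only proteins, which share just the BH3 domain with the rest, free or activate the pore formers. Several BH3-only genes are transcribed in response to stress, among them Bbc3 (PUMA) and Pmaip1 (NOXA) downstream of p53, and pluripotent stem cells are known for a low threshold to apoptosis.

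The study set gene activity beside KLF4 binding and chromatin contacts during reprogramming, with 5 groups of 2 libraries each, all under a single batch label. MEF libraries came from unsorted fibroblasts of the strain C57BL/6 x 129 that carry the OKSM cassette (Pou5f1, Klf4, Sox2 and Myc) at Col1a1 and M2rtTA at ROSA26, kept in MEF medium without doxycycline. The day 3, day 6 and day 9 groups had the same strain and genotype and were kept in ESC medium with doxycycline at 1 µg/ml and ascorbic acid at 50 µg/ml. Day 3 cells were unsorted. For day 6 and day 9 the cells positive for SSEA1 were sorted out, a surface sugar found on early mouse pluripotent cells. ESC libraries came from unsorted V6.5 cells, a single line labelled C57BL/6 x 129, grown with LIF on irradiated feeder cells and without the cassette. Day 3 with MEF therefore combines induction of the transgenes, doxycycline, ascorbic acid and a change of medium. Day 6 with day 3 combines time with sorting. ESC with day 9 combines the end of induction with another cell line, feeders and no sort. Day 9 with MEF combines the parts of day 3 with MEF with more time and the sort for SSEA1. ESC with MEF combines cell type with another cell line, LIF, feeders and the lack of the cassette. Day 3 with MEF, day 9 with MEF and ESC with day 9 also differed in sex-linked expression, given below. Within each of these comparisons such parts cannot be told apart. The libraries are bulk samples, in which fewer cells that express a gene and less RNA per cell cannot be told apart.

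Libraries held 29585876 to 38275024 estimated reads. Levels of single genes are given as CPM, counts scaled to a common library size on the TMM scale of edgeR, and levels are compared between genes as TPM, transcript abundance scaled to a common total, which takes transcript length into account. A gene is said to have risen, fallen or been called where edgeR gave an adjusted p under 0.05 and a fold change of at least 2, named below as the fold minimum. The 12 fibroblast markers summed to 49890 to 51350 CPM in MEF, 4550 to 4591 at day 3, 313.4 to 330.1 at day 6, 124 to 132.9 at day 9 and, in ESC, 4419 to 4563, so that the ESC sum was 8.87% of the MEF sum. In ESC 11 of the 12 fibroblast markers were above 1 CPM and none was at 0, whereas at day 9 Lum, Postn and Pdgfra were under 1 CPM and 1 of them was at 0. Of the 4 cassette genes, 3 were called higher at day 3 than in MEF, beside 14.6% of all genes, with a median log2 difference of 3.74. The 10 pluripotency markers summed to 5.152 to 5.43 CPM in MEF and 5343 to 5490 in ESC. The 5 macrophage markers summed to 79.63 to 81.93 CPM in ESC and to at most 22.99 in the other groups. The 4 endothelial markers summed to 4.654 to 5.305 CPM in MEF, 129.8 to 132.7 at day 3, 77.4 to 78.55 at day 9 and, for ESC, 104.3 to 110.1. Cdh5 and Kdr were under 1 CPM in ESC, Pecam1 at day 3, and Pecam1 and Cdh5 in MEF. Of these 4 genes, 1 was called higher in ESC than at day 9 and 3 lower, beside 18.6% and 14.3% of all genes. The 8 epithelial markers summed to 15.26 to 17.99 CPM in MEF, 16.38 to 18.12 at day 3, 1295 to 1353 at day 9 and, for ESC, 587.1 to 587.6. None of the pluripotency, macrophage, endothelial and epithelial markers was at 0 in all libraries of a group. The part of the marker lists in the results below was not tested. Sex-linked genes also separated the groups: Ddx3y, on the Y chromosome, was at 86.4 to 90.6 CPM in MEF, at most 0.176 in the induced groups and 26.1 to 26.8 in ESC, and Xist was at 930 CPM or more in the induced groups, at most 0.793 in MEF and at most 11.3 in ESC. The induced libraries thus matched neither the MEF nor the ESC libraries in sex-linked expression, and the part of this in the results below was not tested.

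Promoter sequence is shown first for 3 of the 4 genes that were highest in the induced cells, and for Bax, a textbook p53 target. Sequences are the 250 bases before a RefSeq transcription start on GRCm38.p6, written 5′ to 3′ on the strand of the gene, with motif matches in capitals. They are credited to RefSeq, in which 8 of the 10 genes had 13 such windows in all. The windows of Bcl2 (chr1:106714291-106714540, minus strand), Bcl2l11 (chr2:128125788-128126037, plus strand), Bbc3 (chr7:16309333-16309582, plus strand) and Bax (chr7:45466899-45467148, minus strand) read as follows.
Bcl2: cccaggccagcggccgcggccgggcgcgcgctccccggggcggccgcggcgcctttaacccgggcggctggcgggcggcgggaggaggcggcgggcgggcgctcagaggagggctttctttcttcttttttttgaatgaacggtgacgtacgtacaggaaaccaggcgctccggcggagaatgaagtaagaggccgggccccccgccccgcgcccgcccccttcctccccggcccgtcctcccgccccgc
Bcl2l11: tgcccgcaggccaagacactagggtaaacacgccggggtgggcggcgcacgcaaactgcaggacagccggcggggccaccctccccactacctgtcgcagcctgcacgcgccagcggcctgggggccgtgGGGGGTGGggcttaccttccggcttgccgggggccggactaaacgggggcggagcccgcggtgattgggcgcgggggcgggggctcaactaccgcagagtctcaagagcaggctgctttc
Bbc3: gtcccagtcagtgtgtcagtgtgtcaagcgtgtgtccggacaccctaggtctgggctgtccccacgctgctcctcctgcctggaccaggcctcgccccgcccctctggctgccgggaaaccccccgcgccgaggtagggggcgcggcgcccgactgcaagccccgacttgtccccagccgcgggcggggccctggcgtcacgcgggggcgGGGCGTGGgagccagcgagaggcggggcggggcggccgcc
Bax: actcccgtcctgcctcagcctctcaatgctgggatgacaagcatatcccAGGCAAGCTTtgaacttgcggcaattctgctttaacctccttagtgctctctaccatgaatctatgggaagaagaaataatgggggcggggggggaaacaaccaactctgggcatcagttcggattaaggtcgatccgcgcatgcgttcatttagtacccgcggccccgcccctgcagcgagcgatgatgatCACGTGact
Searched on both strands were the E-box CACGTG, bound by MYC, the KLF element GGGNGTGG, the octamer ATGCAAAT, bound by POU5F1, and the p53 half-site. The capitals mark a KLF element at position -120 for Bcl2l11 and at -40 for Bbc3, and for Bax a p53 half-site at -201 and an E-box at -9, counted in bases before the start. The Bcl2 window held none of these motifs. The KLF element was found in 15.9% of all 32851 RefSeq windows of this length, the E-box in 6.02%, the p53 half-site in 7.13% and the octamer in 1.6%. In the other member windows a KLF element was found for Bcl2l1 and in both further windows of Bbc3, which overlap and share their matches, and the last of these also held an E-box. Member windows were between 47.6% and 81.6% GC, with a median of 52.4% over all windows. A match is a description of letters, not a measured site.

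Among the anti-apoptotic genes, Bcl2 (chr1:106538178-106714274 on GRCm38, minus strand) moved most. Its level was 13.6 and 12.7 CPM in the MEF libraries, 51.9 and 52.0 at day 3, 55.4 and 59.4 at day 6, 34.4 and 34.5 at day 9, and 3.15 and 3.12 in ESC. The order was thus day 6, day 3, day 9, MEF and ESC, and no library of a group overlapped those of the next. Bcl2 rose 3.95-fold from MEF to day 3 (log2 fold change 1.98 ± 0.06 SE, adjusted p = 6.6e-13 in edgeR's quasi-likelihood test). It fell 11.0-fold between day 9 and ESC (log2 fold change -3.46 ± 0.07, adjusted p = 2.5e-14 in the edgeR test) and lay 4.18-fold lower in ESC than in MEF (-2.07 ± 0.09, adjusted p = 2.3e-11). Bcl2 is scarce per length in all groups, at 0.904 ± 0.0478 TPM (SD, n = 2) in MEF and 3.59 ± 0.116 TPM at day 3, so that log2(TPM + 1) gives a much smaller difference of -0.63 between ESC and MEF.

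Bcl2l1 (chr2:152780668-152831728, minus strand), the gene of BCL-XL, was at 47.6 and 47.5 CPM in MEF, 58.4 and 57.6 at day 3, 32.8 and 33.4 at day 6, 33.9 and 34.8 at day 9, and 47.2 and 44.5 in ESC. The day 6 and day 9 libraries were the lowest and the day 3 libraries the highest. Its largest step was from day 3 to day 6, at -0.81 ± 0.05 (adjusted p = 2.0e-09 in the edgeR test), which is under the fold minimum, and no comparison called it.

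Mcl1 (chr3:95658788-95663176, plus strand), whose protein turns over quickly, was at 340 CPM in both MEF libraries, 383 and 353 at day 3, 247 and 248 at day 6, 241 and 249 at day 9, and 463 and 468 in ESC. The ESC libraries were the highest and the day 6 and day 9 libraries, which overlapped, the lowest. The difference between ESC and day 9 was 0.93 ± 0.04 in CPM (adjusted p = 2.7e-11 in the edgeR test), just under the fold minimum. It passed the minimum on the length-corrected scales, at 1.07 with a length offset and 1.24 with limma on log2(TPM + 0.1). Between day 3 and MEF the sign depended on the scale, with 0.12 in CPM and -0.18 with a length offset. The shorter transcript Mcl1-002, of 858 bases, held 6.32% of Mcl1 reads in MEF, 0.161% at day 3 and 5.98% in ESC. ESC libraries held 8.87% of the MEF fibroblast marker sum, and its part in the Mcl1 difference was not tested.

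Of the effectors, Bax (chr7:45461697-45466898, minus strand) varied least of the 10 genes. Its level was 149 and 159 CPM in MEF, 191 and 180 at day 3, 208 and 210 at day 6, 216 and 218 at day 9, and 176 and 183 in ESC. All 6 induced libraries were above the MEF libraries, but those of day 3 overlapped those of ESC. Day 9 with MEF gave 0.50 ± 0.04 (adjusted p = 3.4e-08 in the edgeR test), and no comparison reached the fold minimum.

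Bak1 (chr17:27019810-27029009, minus strand) ran the other way. It was at 98.3 and 98.2 CPM in MEF, 55.2 and 58.0 at day 3, 46.6 and 44.5 at day 6, 50.1 and 55.4 at day 9, and 73.2 and 74.7 in ESC. Every induced library was below every MEF and ESC library. The difference of day 9 from MEF was -0.89 ± 0.05 (adjusted p = 4.3e-10 in the edgeR test), which misses the fold minimum here but passes it with DESeq2 (-1.04) and with 4 further alternatives. Bak1 shares 25.5% of its exon bases with Ggnbp1 on the opposite strand, which was at 2.26 CPM in MEF and 9.97 at day 9. In the deposited estimates 61.2% to 66.1% of Bak1 reads went to Bak1-002, a transcript annotated as a target of nonsense-mediated decay, in every group.

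Of the 5 BH3-only genes, 3 were called higher at day 3 than in MEF and 4 at day 9. Of all tested genes 14.6% and 24.1% were called higher in these comparisons. Bcl2l11 (chr2:128126038-128162547, plus strand), the gene of BIM, was at 26.1 and 25.6 CPM in MEF, 52.9 and 53.7 at day 3, 58.9 and 58.6 at day 6, 42.4 and 40.1 at day 9, and 29.2 and 28.4 in ESC. The groups did not overlap, with day 6 the highest and MEF the lowest. Day 3 was 2.06-fold higher than MEF (1.04 ± 0.05, adjusted p = 1.2e-10 in the edgeR test). That call rests on the setting: the difference was 0.92 with DESeq2, 0.98 in a fit of only these groups and 0.61 with limma on log2(TPM + 1), all under the fold minimum.

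Bbc3 (chr7:16308393-16318205, plus strand), the gene of PUMA, was at 22.8 and 22.3 CPM in MEF, 50.0 and 49.8 at day 3, 63.5 and 66.5 at day 6, 66.2 and 64.8 at day 9, and 23.1 and 25.1 in ESC. The day 6 and day 9 libraries overlapped at the top, and the ESC libraries lay just above those of MEF. Bbc3 rose 2.21-fold from MEF to day 3 (1.15 ± 0.05, adjusted p = 1.1e-10 in the edgeR test) and fell 2.71-fold from day 9 to ESC (-1.44 ± 0.05, adjusted p = 4.7e-12). Between ESC and MEF the difference of 0.10 ± 0.06 did not pass the test (adjusted p = 0.13 in edgeR).

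Pmaip1 (chr18:66458533-66465565, plus strand), the gene of NOXA, whose protein binds MCL1, had an order of its own. It was at 15.0 and 14.9 CPM in MEF, 8.72 and 7.72 at day 3, 22.1 and 22.4 at day 6, 38.4 and 37.5 at day 9, and 81.8 and 85.4 in ESC. No groups overlapped, and day 3 was the lowest. Pmaip1 rose 2.70-fold from day 3 to day 6 (1.43 ± 0.07, adjusted p = 2.7e-10 in the edgeR test), 2.20-fold from day 9 to ESC (1.14 ± 0.05, adjusted p = 5.1e-11) and 5.60-fold between MEF and ESC (2.48 ± 0.06, adjusted p = 2.3e-14). The lower level at day 3 than in MEF, -0.86 ± 0.07, was under the fold minimum.

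Bid (chr6:120891930-120916853, minus strand), which links death receptors to the mitochondrion once caspase-8 has cut its protein, was at 22.5 and 23.0 CPM in MEF, 35.6 and 32.8 at day 3, 51.1 in both day 6 libraries, 50.5 and 49.1 at day 9, and 36.9 and 35.4 in ESC. Day 6 was the highest and MEF the lowest, and the day 3 libraries overlapped those of ESC. Day 9 was 2.19-fold higher than MEF (1.13 ± 0.05, adjusted p = 9.4e-11 in the edgeR test), a call that is lost with DESeq2, at 0.99. Bid shares 17.7% of its exon bases with Bcl2l13 on the opposite strand, which was at 44.4 CPM in MEF and 76.3 at day 9, and whether the counting used the strand is not given in the sources used here.

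Bik (chr15:83526862-83544634, plus strand), whose protein sits at the endoplasmic reticulum, was almost silent in the fibroblasts. It was at 0.222 and 0.274 CPM in MEF, from 6 and 9 reads, 9.56 and 8.48 at day 3, 3.50 and 4.78 at day 6, 2.80 and 2.98 at day 9, and 1.41 and 1.58 in ESC. The level was highest at day 3 and lower in each later group, with no overlap. Bik rose from MEF to day 3 by a fitted log2 fold change of 5.15 ± 0.26 (adjusted p = 3.0e-10 in the edgeR test), whose size rests on the few MEF reads. It fell from day 3 to day 6 (-1.12 ± 0.17, adjusted p = 6.1e-05), but by 0.93, under the fold minimum, without day 6 replicate 1. ESC was higher than MEF (2.56 ± 0.31, adjusted p = 3.4e-06 in the edgeR test).

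**Figure D1:**
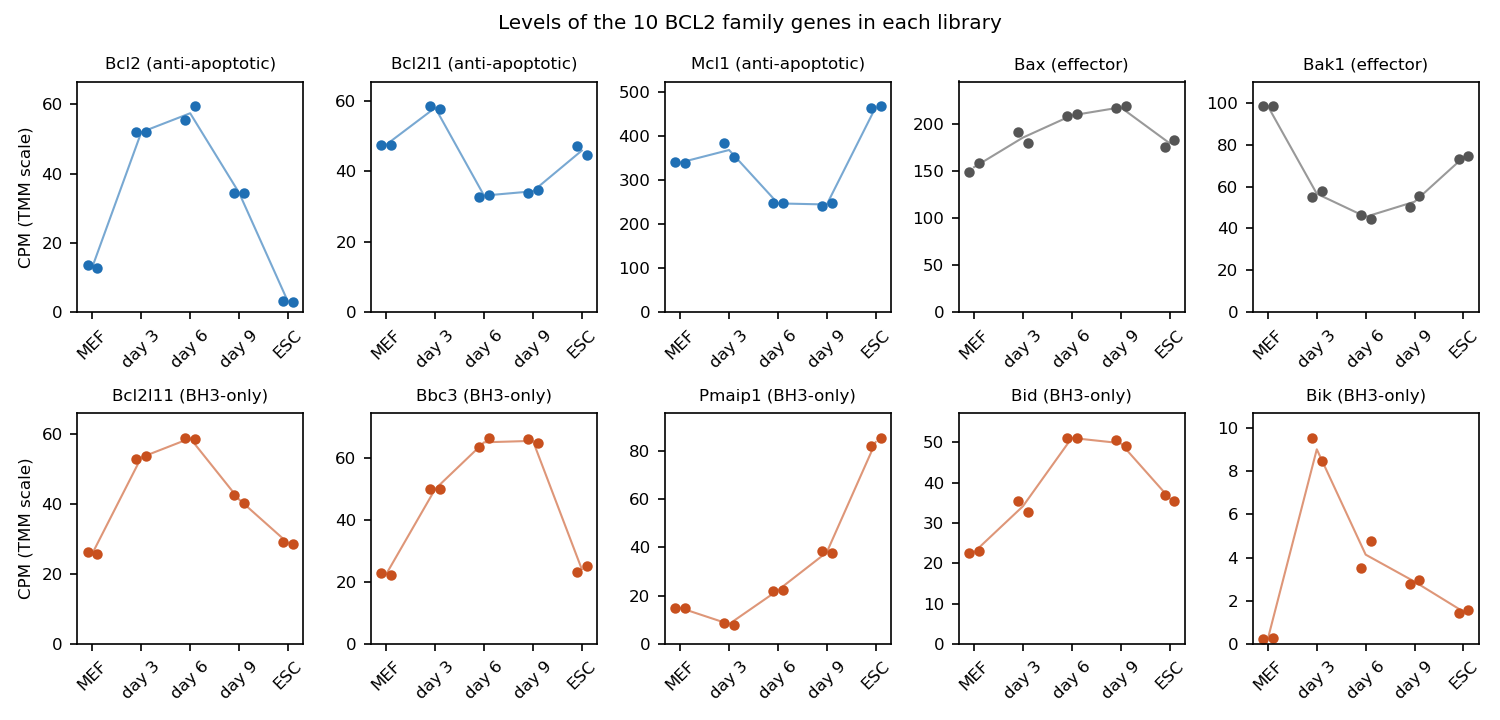
Level of each of the 10 genes in CPM on the TMM scale (y axis, linear and from 0) in MEF, day 3, day 6, day 9 and ESC (x axis); each point is 1 library and the line joins the group means of 2 libraries. Bcl2, Bcl2l11, Bbc3 and Bik are above both ends at days 3 to 9, Bak1 is below both, and Pmaip1 is highest in ESC at 81.8 and 85.4 CPM.

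Counted over the whole set, 4 of the 10 genes were called higher at day 3 than in MEF (Bcl2, Bcl2l11, Bbc3 and Bik) and 0 lower. Of the 20165 genes tested, 14.6% were called higher and 14.5% lower (2950 and 2923 genes, or 3809 and 2483 when libraries were scaled by total reads in place of TMM). Without the fold minimum 8 of the 10 were higher and 2 lower in edgeR, by the unadjusted and the adjusted p alike, and 64.9% of all genes passed the adjusted p alone. DESeq2, with the fold minimum, called 3 of the 10 higher and 0 lower. The median log2 difference of the 10 was 0.44, beside 0.08 over all tested genes.

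From day 3 to day 6, Pmaip1 was called higher and Bik lower, beside 9.26% and 10.2% of all tested genes. By the adjusted p alone 6 of the 10 were higher and 4 lower, and 56.5% of all genes passed. Between day 9 and day 6, 0 of the 10 were called by edgeR or DESeq2, beside 7.87% of all genes in either direction, although 5 of the 10 passed p under 0.05, unadjusted or adjusted, as did 34.6% of all genes by the adjusted p. The largest differences in that step were 0.77 ± 0.06 for Pmaip1 and -0.73 ± 0.05 for Bcl2.

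Between ESC and day 9, Pmaip1 was called higher and Bcl2 and Bbc3 lower, beside 18.6% and 14.3% of all genes. All of the other 7 genes passed the adjusted p alone, as did 69.6% of all tested genes. In ESC the fibroblast marker sum was 4419 to 4563 CPM, against 124 to 132.9 at day 9, and Xist and Ddx3y also separated these groups, at 10.2 and 26.5 CPM in ESC against 1080 and 0.0987 at day 9. Their part in these differences was not tested.

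Over the whole course, ESC had Pmaip1 and Bik called higher than MEF and Bcl2 lower, beside 25.5% and 20.6% of all genes (5142 and 4148, or 6553 and 3152 when scaled by total reads), and 7 of the 10 were not called. By the adjusted p alone 6 were higher and 2 lower, and 76.6% of all genes passed. At day 9, Bcl2, Bbc3, Pmaip1, Bid and Bik were called higher than MEF and 0 of the 10 lower, beside 24.1% and 19.8% of all genes (4857 and 3994, or 6241 and 3284 when scaled by total reads). Without the fold minimum 3 were lower in edgeR, by the unadjusted and the adjusted p alike, where 74.9% of all genes passed the adjusted p alone, and DESeq2 with the fold minimum called 1 lower, Bak1. Comparisons that share a group are not independent of each other, so these counts are given side by side only.

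**Figure D2:**
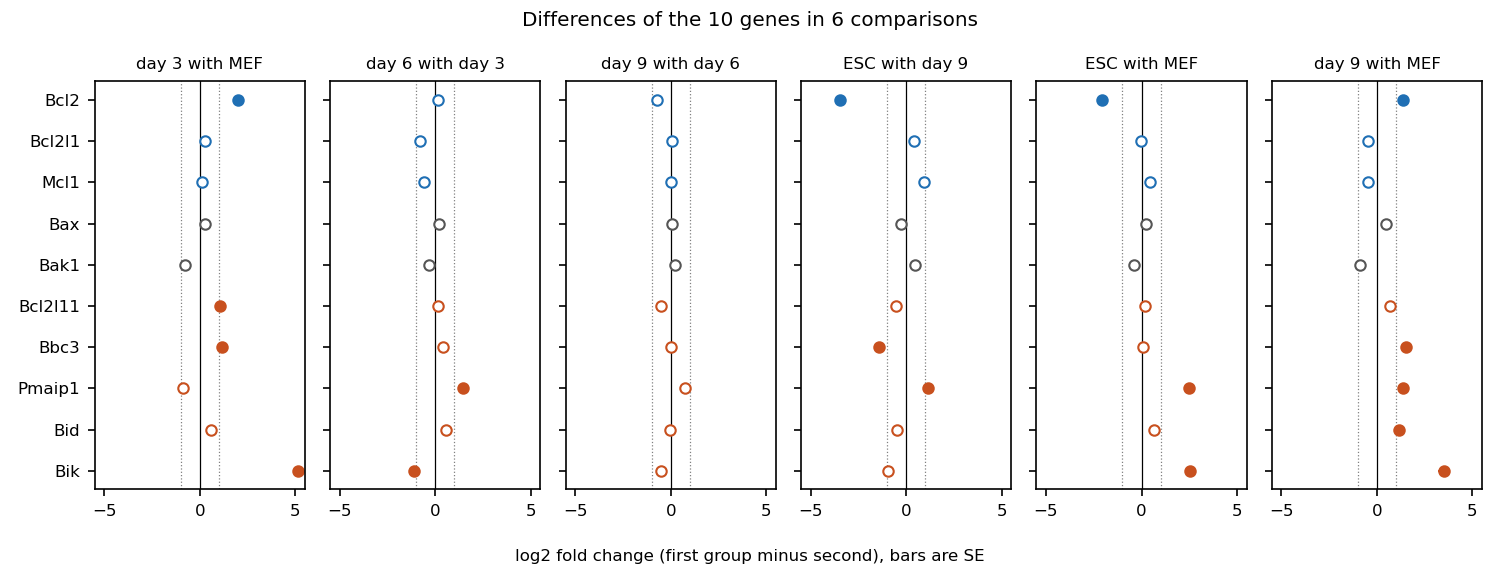
Log2 fold change of each gene (x axis, first group minus second) in 6 comparisons, coloured by class; filled points passed an adjusted p under 0.05 and a 2-fold minimum, marked by the dotted lines, and error bars are SE, mostly smaller than the points. At day 3 the filled points are Bcl2, Bcl2l11, Bbc3 and Bik, all higher than in MEF, and none is filled between day 9 and day 6.

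Levels in all 6 induced libraries were above all 4 MEF and ESC libraries for Bcl2, Bcl2l11, Bbc3 and Bik, a pattern seen in 13.8% of the tested genes. They were below all 4 for Bak1, as in 10.2% of the tested genes. On the TPM scale Mcl1 joined Bak1 below both end points. These are counts of libraries that do not overlap, with no test.

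Summed within the classes, which can be done in TPM, the anti-apoptotic genes gave 77.7 ± 0.0091 TPM in MEF (SD, n = 2 here and below), 75.8 ± 2.24 at day 3, 52.5 at day 6, 49.4 at day 9 and, for ESC, 103. Mcl1 made up 80.1% of this sum in MEF, 72.1% at day 3, 75.9% at day 9 and 86% in ESC. The share of Bcl2 went from 1.16% in MEF to 7.57% at day 6 and 0.222% in ESC. Bcl2l1 held 13% to 23.2% in the single libraries. Among these 3 genes Mcl1 was thus the most abundant transcript in every library.

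The effectors summed to 178 TPM in MEF, 175 at day 3, 187 at day 6, 183 at day 9 and, for ESC, 189. With all transcripts counted, this span was smaller than that of either other class. Bax held 62.1% and 65.2% of the sum in the MEF libraries and 79.4% to 84.9% in the induced libraries. On this scale sums of like size thus held more Bax and less Bak1 in the induced groups. With protein-coding transcripts alone the sum was 134 TPM in MEF, 151 at day 3, 166 at day 6, 161 at day 9 and, for ESC, 156. Bax made up 84.6% of that sum in MEF and 94.8% at day 9. Left out on that scale are Bak1-003, a processed transcript that held 42.9% of Bak1 TPM in MEF and 43.1% at day 9, and Bak1-002, which held 25.3% and 29.4%. The ratio of Bax to Bcl2 in TPM was 126 ± 10.2 in MEF, 38.9 ± 1.8 at day 3, 39.3 ± 1.8 at day 6, 67.7 ± 0.557 at day 9 and, for ESC, 612 ± 28.2.

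**Figure D3:**
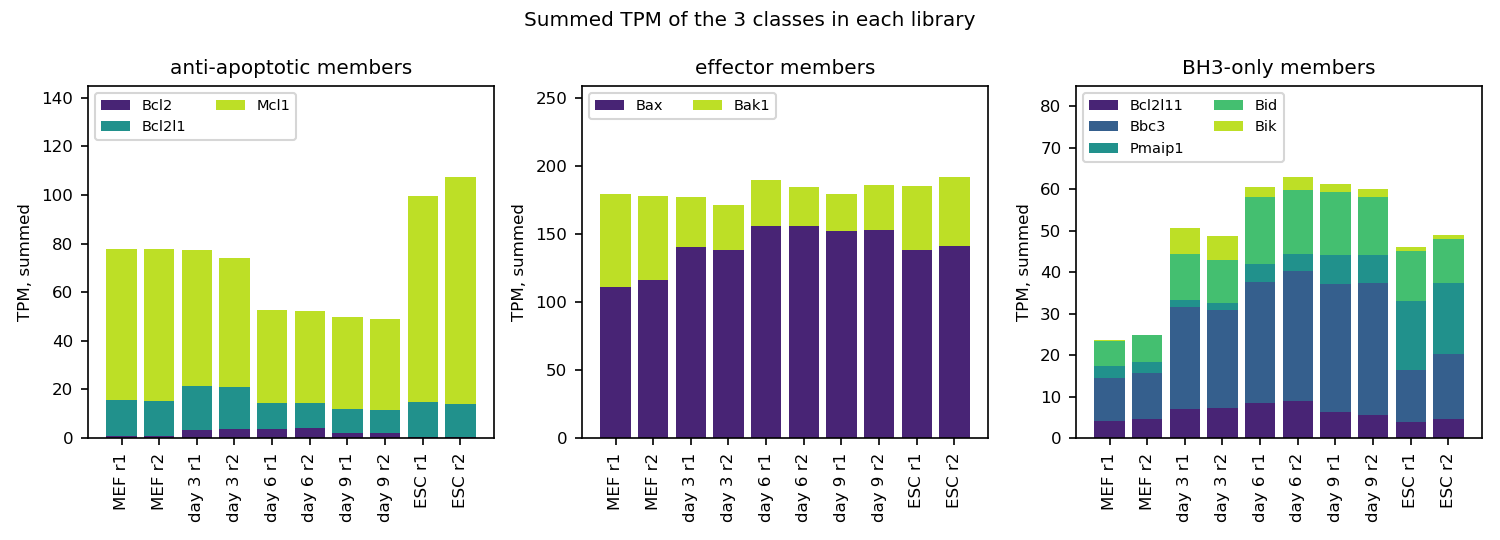
Summed TPM of the anti-apoptotic, effector and BH3-only genes (y axes, linear and from 0, with different ranges) in each of the 10 libraries (x axis), with bar segments for the single genes. The anti-apoptotic sum is lowest at days 6 and 9 and mostly Mcl1, the effector sum stays between 172 and 192 TPM, and the BH3-only sum is lowest in MEF.

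The BH3-only genes summed to 24.3 TPM in MEF, 49.7 at day 3, 61.6 at day 6, 60.6 at day 9 and, for ESC, 47.6. Bbc3 was the largest part in MEF and the induced groups, at 44.2% in MEF, 48.5% at day 3 and 51.7% at day 9, and held 29.5% in ESC. Pmaip1 held 11.8% in MEF, 3.22% at day 3 and 35.5% in ESC, where it was the largest part of the mean. Bik held 12.2% at day 3 and 0.673% in MEF. The mix in ESC thus differed from that at day 9, with more Pmaip1 and less Bbc3.

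The ratio of the BH3-only sum to the anti-apoptotic sum was 0.304 and 0.321 in the MEF libraries, 0.655 and 0.656 at day 3, 1.15 and 1.20 at day 6, 1.23 and 1.22 at day 9, and 0.463 and 0.457 in ESC. It was lowest in MEF and highest at day 9 in TPM, with no overlap of groups on that scale. The smallest p of a two-sided exact permutation test with 2 libraries a group is 0.333, so no test is given. With protein-coding transcripts alone the ratio was 0.272 in MEF, 1.06 at day 9 and, for ESC, 0.408. With CPM over a fixed length per gene it was 0.348, 1.18 and 0.486, so the order of MEF, ESC and day 9 was the same on the 3 scales. Day 6 and day 9 overlapped on both further scales, at 1.00 and 1.09 against 1.07 and 1.06 with protein-coding transcripts alone, and at 1.14 and 1.17 against 1.21 and 1.15 with a fixed length. The ratio compares RNA and not protein.

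**Figure D4:**
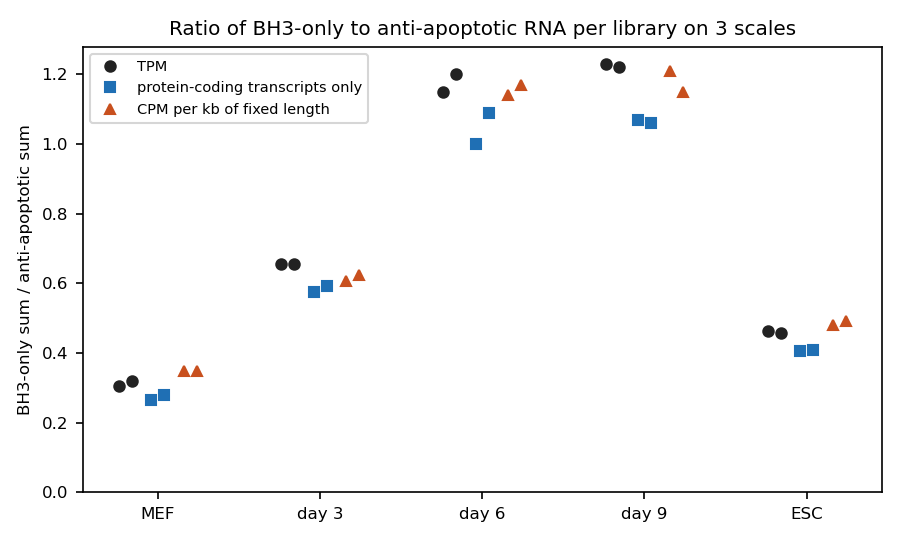
Ratio of summed BH3-only to summed anti-apoptotic RNA (y axis, linear and from 0) in each library of the 5 groups (x axis), in TPM, in TPM of protein-coding transcripts alone, and in CPM per kilobase of a fixed gene length; each point is 1 library. On all 3 scales the day 6 and day 9 libraries are highest, at 1.15 to 1.23 in TPM, and the MEF libraries lowest.

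Transcript use within the genes depended on the unit for Mcl1. Bax, Bik and Pmaip1 were each covered by a single transcript in the tables. No transcript of the other 7 genes moved by 20 percentage points of its gene's reads between groups. As a share of TPM, which weights short transcripts more and was chosen after seeing the data, Mcl1-002 moved by 25.1 points: it held 26% of Mcl1 TPM in MEF, 0.83% at day 3, 6.62% at day 6, 12.7% at day 9 and, for ESC, 24.6%. No other transcript of these genes passed 20 points in TPM. The level of Mcl1-002 was 20.1 and 22.9 CPM in MEF, and 1.04 and 0.178 at day 3, while the ESC libraries had 20.7 and 35.0, so the Mcl1 and anti-apoptotic sums in TPM carry this transcript in MEF and ESC. The largest range in reads was that of Bbc3-001, from 71.1% in ESC to 83.9% at day 6. Bcl2-001, the long form of 7191 bases, held 97.3% to 98.4% of Bcl2 reads, Bid-001 94.3% to 97.1% and Bcl2l11-001, of 5036 bases, 80.1% to 86.8%. Single reads separate transcripts of a gene only where their exons differ, so these shares are estimates.

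Likeness of pattern was measured as the root mean square difference in centred log2 CPM over the 10 libraries, searched over 11170 protein-coding genes. Closest to Bcl2 was Cpne2, a copine, at 0.0938, with group means of 29.0 CPM in MEF, 118 at day 6 and 7.24 in ESC. Abr (0.0701) and Stk38 (0.092) were closest to Bbc3, and Abr was at 68.8 CPM in both MEF and ESC and 211 at day 6. Unc13b (0.124) and Egfl7 (0.201) were closest to Pmaip1, and Polr3e (0.0588) and Chd1 (0.0593) to Bid. Dstn (0.0744) and Arl5a (0.08) were closest to Bak1, and Cstf2t (0.0983) and Homer1 (0.101) to Bcl2l11. For Bik the nearest of the genes searched, all at a mean of 5 CPM or more, was Tmem229b at 0.423. Bik itself was under 5 CPM in every group except day 3, so other genes at such low levels were not searched. The part of its few reads in this distance was not tested. Within the family the closest pair was Bcl2l1 and Mcl1, at 0.229, followed by Bax and Bid at 0.257. The libraries share their group structure, so such likeness is a description with no test.

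Of 16 other BCL2 family genes, 12 were tested. Bnip3, a mitophagy receptor induced by low oxygen, had the largest change of those at 10 CPM or more: it was at 330 and 339 CPM in MEF, 27.5 and 25.6 at day 3, 26.2 and 27.6 at day 6, 30.3 and 32.0 at day 9, and 107 and 109 in ESC. It fell from MEF to day 3 (-3.65 ± 0.05, adjusted p = 8.6e-17 in the edgeR test) and was higher in ESC than at day 9 (1.80 ± 0.05, adjusted p = 1.3e-13). Its relative Bnip3l, at 177 CPM in MEF and 107 at day 3, was not called in any comparison. Bmf, a BH3-only gene linked to the cytoskeleton, was at 26.4 and 28.5 CPM in ESC and at most 11.6 elsewhere, and rose between day 9 and ESC (1.52 ± 0.08, adjusted p = 4.2e-10 in the edgeR test).

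The anti-apoptotic Bcl2l2 (BCL-W) had group means of 55.5 CPM in MEF and 27.0 in ESC and was called lower there (-1.04 ± 0.06, adjusted p = 7.5e-10 in edgeR). Bok, a further effector, went from 45.8 to 16.4 CPM (-1.48 ± 0.07, adjusted p = 1.4e-10), and Bad, a BH3-only gene regulated by growth factor signalling, from 39.8 to 18.4 CPM (-1.11 ± 0.06, adjusted p = 7.0e-10 in the edgeR test). Hrk, a BH3-only gene, was at 0.0739 and 0 CPM in MEF and 4.27 and 4.65 in ESC, and Bcl2l14 was at most 0.121 CPM up to day 6 and 3.39 and 3.74 in ESC. Bcl2l15 was highest at day 9, at 4.76 and 4.75 CPM, against 0.265 and 0.187 in ESC. Bcl2l12 and Bcl2l13 were not called in any comparison. Bcl2a1b was at 1.15 and 0.908 CPM in ESC and at most 0.177 elsewhere, but it has near-identical copies, so its estimate is uncertain. Bcl2a1a, Bcl2a1c, Bcl2a1d and Bcl2l10 were too low to be tested. Among the 12, 5 were called higher and 4 lower in ESC than in MEF, beside 25.5% and 20.6% of all genes. At day 9, 3 were higher and 4 lower than in MEF, beside 24.1% and 19.8% of all genes.

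**Figure D5:**
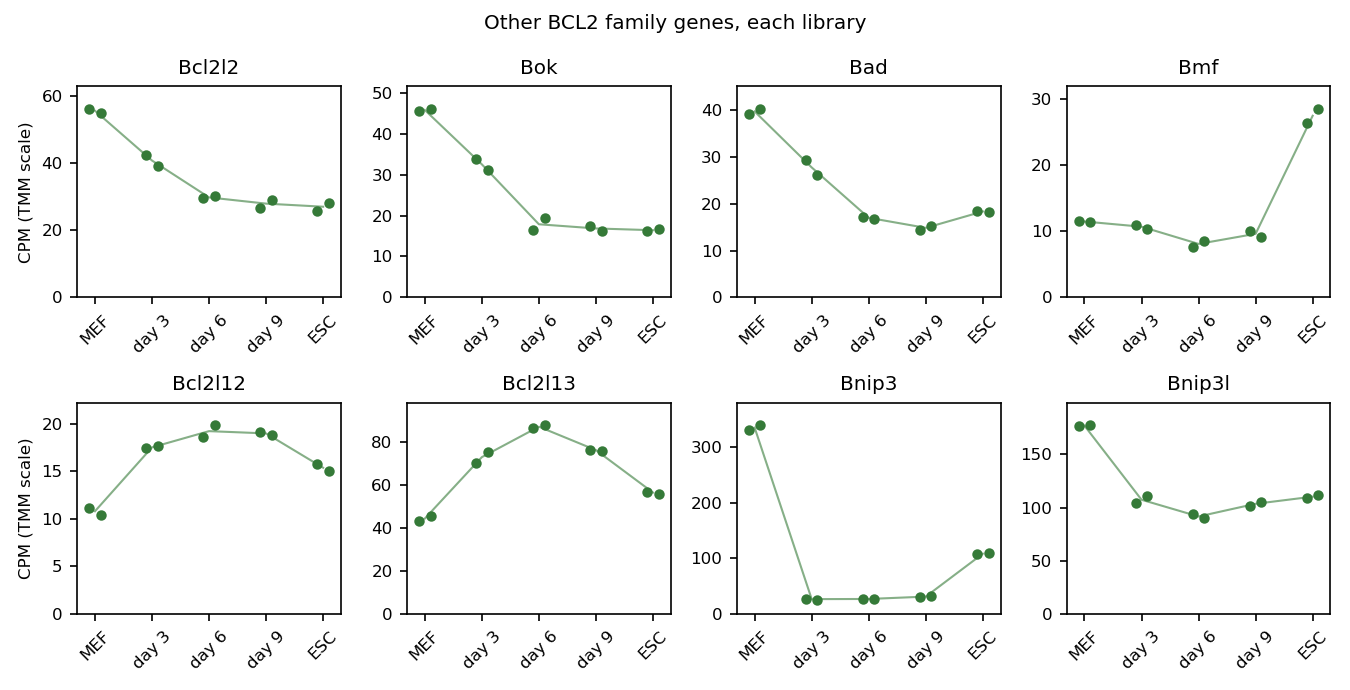
Level of 8 other BCL2 family genes in CPM on the TMM scale (y axes, linear and from 0) in the 5 groups (x axis); each point is 1 library and lines join group means. Bnip3 drops from 335 CPM in MEF to 26.6 at day 3, Bmf is highest in ESC, and Bcl2l2, Bok and Bad are highest in MEF.

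Downstream of the mitochondrion, 1 of 17 caspase and mitochondrial genes was called higher in ESC than in MEF and 1 lower, with a list median of -0.06 beside 0.099 over all genes. Parp1, a DNA repair enzyme cleaved by caspases, rose from 90.4 to 595 CPM (2.72 ± 0.04, adjusted p = 1.6e-16 in the edgeR test), and Casp6 fell from 27.2 to 10.7 CPM (-1.34 ± 0.07, adjusted p = 4.3e-10). Beside the ESC counts stand 25.5% higher and 20.6% lower of all genes. At day 3, 2 of the 17 were called higher than in MEF and 1 lower, beside 14.6% and 14.5%. Between day 6 and day 3 edgeR and DESeq2 called 0 of them, beside 9.26% of all genes called higher and 10.2% lower by edgeR. At an unadjusted p under 0.05 in edgeR, 6 were higher and 4 lower. Of 7 tested inhibitor of apoptosis genes, Birc5, a mitotic gene also known as survivin, was higher in ESC than in MEF (1.14 ± 0.04, adjusted p = 5.2e-12 in the edgeR test) and Birc3 lower (-2.17 ± 0.09, adjusted p = 1.9e-11).

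Of 11 death receptor genes tested, 6 were called lower in ESC than in MEF and 0 higher by edgeR, beside 20.6% and 25.5% of all genes, with a median of -1.20 beside 0.099 over all genes. Against day 9, 1 was called higher in ESC and 1 lower, beside 18.6% and 14.3% of all genes. At an unadjusted p under 0.05, 1 was higher and 8 lower in ESC than in MEF, and DESeq2 called 0 higher and 6 lower. The receptor gene Tnfrsf1a fell from 152 to 28.5 CPM (-2.41 ± 0.05, adjusted p = 1.1e-14 in the edgeR test). At day 3, 2 of the 11 were called higher than in MEF and 3 lower, beside 14.6% and 14.5% of all genes, among them Fas, which rose from 7.30 to 24.8 CPM (1.77 ± 0.11, adjusted p = 2.1e-09), and Tnfrsf1b, which fell from 17.6 to 4.24 CPM (-2.06 ± 0.09, adjusted p = 5.7e-11). Tnfrsf1b was higher in ESC than at day 9 (2.80 ± 0.09, adjusted p = 3.0e-12 in the edgeR test), and ESC was also the group with the highest macrophage marker sum, whose part in this was not tested.

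Among 15 upstream regulators, 5 were called higher and 2 lower at day 9 than in MEF, beside 24.1% and 19.8% of all genes, with a median of 0.87 beside 0.193 over all genes. DESeq2 called 4 higher and 2 lower. Trp53, the gene of p53, was at 135 and 141 CPM in MEF, 217 and 200 at day 3, 309 and 307 at day 6, 314 and 325 at day 9 and 278 in both ESC libraries. Trp53 was called higher in ESC than in MEF (1.01 ± 0.04, adjusted p = 1.0e-11 in the edgeR test), just over the fold minimum. In that comparison edgeR called 2 of the 15 regulators higher, beside 25.5% of all genes, and DESeq2 called 1. Mdm4, which encodes an inhibitor of p53, rose from 124 CPM in MEF to 391 at day 9 (1.65 ± 0.04, adjusted p = 5.8e-14). Usp9x, whose enzyme stabilises MCL1, rose from 243 CPM to 642 at day 3 (1.40 ± 0.04, adjusted p = 1.2e-12 in the edgeR test), and it lies on the X chromosome. The part of the sex-linked difference between MEF and the induced libraries in the Usp9x change was not tested. Ddit3 (CHOP), a stress factor that induces Bcl2l11 and Bbc3 in other settings, fell from 36.6 to 7.03 CPM at day 3 (-2.37 ± 0.11, adjusted p = 1.0e-10). Myc, a cassette gene, was at 118 and 117 CPM in MEF, 276 and 275 at day 3, and 19.0 and 18.4 in ESC.

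Of 18 p53 target genes outside the family, 1 was called higher and 3 lower in ESC than at day 9, beside 18.6% and 14.3% of all genes. By adjusted p alone 15 of the 18 were lower, where 69.6% of all genes passed in either direction, with a list median of -0.74 beside 0.005 over all genes. Perp, which encodes a junction protein of epithelial cells, was at 2.29 CPM in MEF, 105 at day 3, 232 at day 9 and, for ESC, 19.8, falling by 3.55 on the log2 scale in the last step (SE 0.04, adjusted p = 6.1e-17 in the edgeR test). Plk3 rose in that step from 10.5 to 31.7 CPM (1.61 ± 0.08, adjusted p = 1.4e-10). At day 9, 5 of the 18 were called higher than in MEF and 1 lower, beside 24.1% and 19.8% of all genes, and DESeq2 called 3 higher. Of the p53 targets within the family, Bbc3 was called lower in ESC than at day 9 and Pmaip1 higher.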

How the data were processed

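RNA was measured by poly(A) RNA-seq with single reads from a stranded kit, per the labels' protocols. The authors quantified transcripts with Salmon 0.8.2 against build mm10, per the submitters' processing notes. The annotation release and the use of strand are not given in the sources used here. The deposited tables hold estimated counts, which are not normalized, and TPM values, per the file headers, for 109617 transcripts. Effective lengths were the same in all 10 tables.

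Estimated counts were summed over transcripts to 45706 genes by the gene IDs in the deposited names and rounded, and members were found by symbol. After filterByExpr (minimum count 10, minimum total 15), 20165 genes were fitted with edgeR 4.0.16 (R 4.3.3, TMM scaling, quasi-likelihood test, 1 mean per group over 10 libraries, 5 residual degrees of freedom). P-values were adjusted over all genes tested by the Benjamini-Hochberg method. A gene was called where its adjusted p was under 0.05 and its log2 fold change was 1 or more in size. Each SE was obtained by dividing the size of the log2 fold change by the root of F. The common biological coefficient of variation was 3.75%.

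The members and gene lists were chosen with earlier results of these data known. All members and other family genes were named whatever their values. From each other list the called gene with the largest rise and the one with the deepest fall per comparison, at 10 CPM or more, could be named, and 2 genes of nearest pattern for each member spanning a log2 of at least 1. Trp53 was also given per library, which was chosen after its values were seen.

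Replicate pairs had a chi-square per degree of freedom of 2.78 to 5.05 on the rounded counts, so no pair held identical values. Estimated counts carry spread of their own, so this cannot tell whether a pair came from separate cultures or libraries. The design text calls the replicates biological without naming separate animals or cultures, so p-values measure the spread between these libraries. Counts were also simulated for ESC with day 9 over 16298 genes, from day 9 means and a set biological coefficient of variation of 4%. There edgeR called 0% of genes changed 1.5-fold, 48% of those changed 2-fold and 100% of those changed 4-fold, with 1 unchanged gene called. The fold minimum itself largely sets the shares at 1.5-fold and 2-fold, so they do not measure the power of these data. Alternatives used DESeq2 1.42.0, limma 3.58.1 on log2(TPM + 1) and log2(TPM + 0.1), other filters and scalings, a length offset, a replicate block, fits of 2 groups, and each library left out. Gene coordinates are from GENCODE M21 (GRCm38), in which 98.8% of the genes were found by ID.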

Additional observations from a re-analysis of the deposited data

How the results depend on the processing

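No difference of the 10 genes that was called reversed its sign under any alternative run. Without the fold minimum the members called numbered 10 for day 3 with MEF, 10 for day 6 with day 3, 5 for day 9 with day 6, 10 for ESC with day 9, 8 for ESC with MEF and 10 for day 9 with MEF. In the same order 64.9%, 56.5%, 34.6%, 69.6%, 76.6% and 74.9% of all tested genes passed. A stricter filter of 10 CPM in 2 libraries left 2 members called at day 3 against MEF and 1 at day 6 against day 3, with Bik no longer tested and Bcl2l11 at 0.95. Of the 11712 genes tested with that filter, 1467 were called higher and 1555 lower at day 3, and 806 and 1208 at day 6. On log2(TPM + 1), limma called 1 for day 6 with day 3 and 1 for ESC with MEF, and the cause was not tested. Of all 20165 genes, that setting called 581 higher and 813 lower for day 6 with day 3. For ESC with MEF it called 2771 higher and 2276 lower. Leaving out 1 library at a time gave 1 to 2 calls for day 6 with day 3, the 1 being without day 6 replicate 1. In TPM, a scale chosen after seeing the data, 2 genes lay below both end points in all induced libraries, Mcl1 and Bak1. The replicate block kept all 60 member results on the same side of the threshold, with 4, 2, 0, 3, 3 and 5 members called in the 6 comparisons. In the same order, the block called 2885, 1796, 983, 3674, 5067 and 4747 of all 20165 genes higher. It called 2863, 2015, 518, 2822, 4094 and 3952 lower. The replicate numbers do not pair the libraries by the labels, and the mean correlation of same-numbered deviations was 9.91e-05 (-0.0205 to 0.0222).

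The median log2 difference of all genes at day 3 against MEF was 0.0801 with TMM and 0.285 with scaling by total reads. At day 9 against MEF it was 0.193 and 0.482, and in ESC against MEF 0.0992 with TMM and 0.438 when scaled by total reads. Uncalled signs that changed were Bcl2l1 for ESC with MEF under that scaling (0.29), Bcl2l11 for ESC with MEF with a length offset (-0.12), Mcl1 for day 3 with MEF with DESeq2 (-0.01), and Bak1, Bax, Bcl2l1 and Mcl1 for day 9 with day 6. Depth limits Bik most, with 6 and 9 reads in MEF, 48 and 59 in ESC and 87 and 118 at day 9, and an SE of 0.20 for ESC with day 9.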
